A study of Mus musculus with 14 samples.

Results

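The genes described here encode the machinery that releases, pumps back and stores calcium in skeletal muscle fibres. They are Cacna1s, Ryr1, Jph1, Trdn, Atp2a1, Atp2a2, Sln, Casq1, Casq2 and Pvalb, chosen by symbol. All 10 were among the 21893 named genes of the arrays, on 15 of 55681 probes, and all 10 were tested, since no filter on low values was used. Total RNA of skeletal muscle and of brain was labelled from newborn mice aged 1 day, with and without Cugbp1, to compare transcript levels between the genotypes in each tissue. Cugbp1, now named Celf1, encodes a protein that binds mRNAs and regulates their splicing and stability.

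The Cugbp1 KO mice were derived from BayGenomics gene-trap embryonic stem cells in which the vector sits 5′ of the Cugbp1 AUG, an insertion that is not restricted to muscle, and the cells were injected into C57BL6 mice. The controls were WT, the labels name no treatment for either genotype, and they give C57BL6 as the background of all mice. There were 3 KO and 3 WT arrays of muscle and 4 KO and 4 WT arrays of brain. Nothing in the labels says whether samples came from separate litters, which sex they were or whether brain and muscle came from the same mice, so the p-values measure the spread between these samples only.

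In a muscle fibre, an action potential moves the voltage sensor in the transverse tubule, the sensor opens the calcium release channel of the sarcoplasmic reticulum, and the released calcium triggers contraction. Pumps of the SERCA family then return calcium to the reticulum, calsequestrin binds it there, and parvalbumin binds it in the cytosol of fast fibres. Several of these mRNAs, Ryr1, Cacna1s and Atp2a1 among them, are alternatively spliced during muscle development and misspliced in myotonic dystrophy. A probe intensity gives the level of the transcripts that carry the probe's target and does not report such splice choices.

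Celf1 was lower on every KO array than on every WT array, at 498 to 758 intensity units in KO and 3100 to 4700 in WT muscle. In brain it was at 1640 to 2090 units in KO and 4850 to 6960 in WT mice. Levels below are log2 intensities minus the log2 of the 75th percentile over named probes of the same array, and levels of different probes are not set against each other. The muscle samples held the defining fibre genes at high intensity, such as skeletal actin Acta1 at 275000 to 365000 in KO against 278000 to 436000 in WT muscle. In brain, Acta1 was at 469 to 632 in KO against 466 to 1180 in WT mice. Some arrays stood apart. Summed intensities of 9 cartilage and bone markers, relative to the 75th percentile, were 7.73 and 6.38 on muscle KO arrays 1 and 3 and 0.453 on KO array 2, against 0.709 to 1.43 on the WT arrays. The mean log2 deviation of 9 keratinocyte markers from their tissue mean was 1.02, 1.75 and -0.66 on the muscle KO arrays, against -0.79 to -0.59 on the WT arrays. That of 7 brown fat markers was 2.64 on muscle WT array 1, where they summed to 824, and -1.40 to 0.11 on the other muscle arrays, where the sums were 143 to 249. The mean log2 deviation of 10 hypoxia response genes from their tissue mean was 2.03 on muscle WT array 3, and 1.33 and 1.41 on brain WT arrays 3 and 4. It was -0.69 to 0.00 on the other muscle arrays and -0.80 to -0.14 on the other brain arrays.

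Promoters are shown for the gene with the largest difference between KO and WT muscle, Pvalb, and for Cacna1s and Atp2a1, whose levels correlated at r = 0.91 over the 6 muscle arrays. Cacna1s correlated more closely with Ryr1 (r = 0.98), whose promoter is described below but not printed. The RefSeq promoter table for the mouse build GRCm38.p6 held 7 promoters of 6 of the 10 genes, each from 250 bases before to 50 bases after a transcription start. The letters CANNTG, the E-box bound by myogenic factors such as MyoD, are in capitals where they occur. They read the same on the opposite strand, so each match counts once. For MEF2, only a form with fixed outer letters that reads the same on the opposite strand was searched. Its middle letters could be any base, so a match to it need not be a MEF2 motif. Other forms of the MEF2 motif were not searched.
Pvalb, upstream start, chr15:78206351-78206650, minus strand: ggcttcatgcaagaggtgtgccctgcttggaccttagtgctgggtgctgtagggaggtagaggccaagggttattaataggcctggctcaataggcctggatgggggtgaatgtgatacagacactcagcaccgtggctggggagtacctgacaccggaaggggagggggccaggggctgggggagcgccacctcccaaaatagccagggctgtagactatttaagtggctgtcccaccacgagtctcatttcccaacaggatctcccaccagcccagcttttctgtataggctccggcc
Pvalb, downstream start, chr15:78204188-78204487, minus strand: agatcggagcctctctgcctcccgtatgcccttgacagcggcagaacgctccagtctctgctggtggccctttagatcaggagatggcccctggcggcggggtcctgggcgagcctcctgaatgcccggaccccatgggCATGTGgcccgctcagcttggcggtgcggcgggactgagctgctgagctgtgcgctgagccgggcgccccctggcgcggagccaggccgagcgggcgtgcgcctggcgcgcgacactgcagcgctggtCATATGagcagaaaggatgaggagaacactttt
Cacna1s, chr1:136052561-136052860, plus strand: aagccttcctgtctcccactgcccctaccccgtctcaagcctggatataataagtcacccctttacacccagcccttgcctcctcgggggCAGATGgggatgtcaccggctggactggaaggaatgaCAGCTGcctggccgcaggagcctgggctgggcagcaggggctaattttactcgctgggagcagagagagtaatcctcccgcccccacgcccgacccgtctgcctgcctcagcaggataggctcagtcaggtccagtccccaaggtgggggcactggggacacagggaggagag
Atp2a1, chr7:126463024-126463323, minus strand: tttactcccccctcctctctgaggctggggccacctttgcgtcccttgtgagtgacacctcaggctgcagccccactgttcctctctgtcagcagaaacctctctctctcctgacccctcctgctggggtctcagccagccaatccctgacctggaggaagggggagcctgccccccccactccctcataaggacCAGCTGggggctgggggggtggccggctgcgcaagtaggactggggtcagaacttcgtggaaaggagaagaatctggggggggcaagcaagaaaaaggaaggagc
The upstream Pvalb promoter held 0 matches to CANNTG and the downstream one 2. Cacna1s held 2 and Atp2a1 held 1, and CAGCTG, which is 1 form of CANNTG, occurred in both of these and in Casq1. Of all 32851 promoters of the same length, 72.3% held CANNTG, 16.3% held CAGCTG and 3.69% held the form searched for MEF2, with any middle letters. None of the 7 promoters held that form, and the Ryr1 promoter held 0 matches to CANNTG. Since other forms were not searched, this does not show that the 7 promoters lack a MEF2 site. The upstream Pvalb promoter and the Casq2 promoter each hold a stretch that differs from that form in its first letter only. The middle letters of both stretches are A or T. Binding of MEF2 was not tested. A match to a searched form describes its letters only.

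In KO against WT muscle, 0 of the 10 genes passed an adjusted p under 0.05 in limma, where 0% of all genes passed. The median log2 fold change of the 10 was -0.08, beside -0.027 over all genes, and 4 genes stood above and 6 below 0, as 53.4% of all genes stood below. Pvalb was the gene whose KO arrays all lay below its WT arrays, and 2.09% of all genes separated in this direction. Its log2 fold change was -1.71, and the other 9 lay between -0.32 and 0.23. Over all genes, 341, or 1.56%, had an unadjusted p under 0.05, and Pvalb was the 1 gene of the 10 among them.

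**Figure D1:**
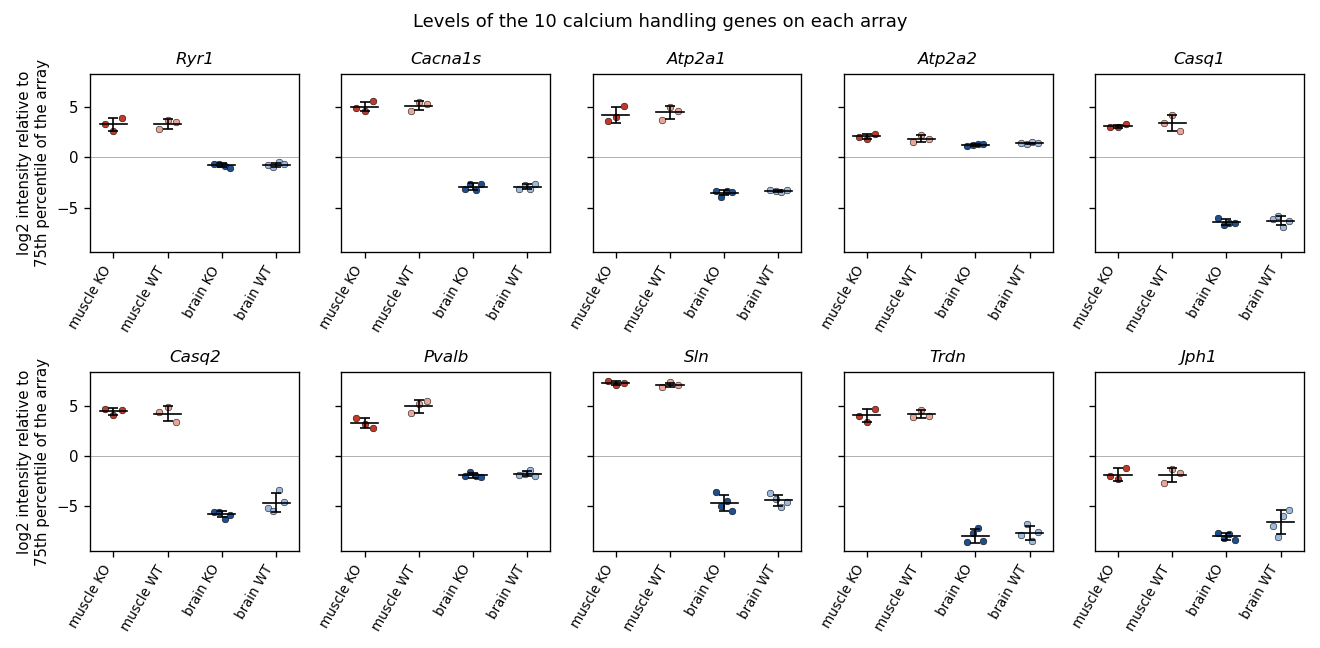
Log2 intensity of each gene minus the array's 75th percentile, for muscle KO, muscle WT, brain KO and brain WT, with 1 point per array and bars for the mean and SD. Muscle points lie above brain points for every gene, closely so for Atp2a2, and the 3 muscle KO points of Pvalb (2.80 to 3.83) lie below its 3 muscle WT points (4.25 to 5.47).

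Pvalb encodes parvalbumin, the cytosolic calcium buffer of fast fibres, whose level in rodent muscle climbs after birth. On its brighter probe, A_55_P2114437, the log2 levels were 3.83, 3.17 and 2.80 on the KO arrays, against 4.25, 5.21 and 5.47 on the WT arrays of muscle. The closest arrays of the genotypes were KO array 1 and WT array 1. The difference of -1.71 ± 0.42 (SE, n = 3 per genotype) is a 3.28-fold lower level in KO, with a 95% interval of -2.71 to -0.71 for this gene taken alone. Over all genes it did not pass (limma, adjusted p = 1.00, and 0.209 to 1.00 under the other settings tried). The other probe, A_55_P2059040, read 1.92, 1.34 and 1.60 on the KO arrays and 2.38, 3.70 and 3.68 on the WT arrays. Both probes put every KO array below every WT array, and the second gave a log2 fold change of -1.63.

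Of 15 skeletal muscle fibre markers, 0 passed in muscle and 0 had an unadjusted p under 0.05, with a median log2 fold change of -0.26 and 13 below 0. Their mean log2 deviations were -0.11, -0.38 and 0.15 on the KO arrays and -0.11, 0.34 and 0.11 on the WT arrays, which overlapped. Their summed intensities relative to the 75th percentile, which the brightest genes dominate, were 2500, 1830 and 2390 on the KO arrays and 2570, 2850 and 2570 on the WT arrays. With the mean log2 level of these markers subtracted from each array, which was added as a setting once the data had been seen, the log2 fold change of Pvalb was -1.49. In a bulk sample, fewer fibres of a type and less RNA per fibre cannot be told apart. Cartilage and bone markers were high on KO arrays 1 and 3 and keratinocyte markers on KO arrays 1 and 2, and their part in the Pvalb difference was not tested. Brown fat markers were high on WT array 1, where Pvalb was lowest among WT arrays, and without that array the log2 fold change was -2.07. Hypoxia response genes were high on WT array 3, where Pvalb was highest, and without that array the log2 fold change was -1.47.

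The voltage sensor and the release channel had similar means in both genotypes. Cacna1s encodes the pore-forming subunit of the voltage sensor. Its log2 levels were 4.94, 4.63 and 5.57 on the KO arrays and 4.60, 5.52 and 5.30 on the WT arrays of muscle, a difference of -0.09 ± 0.36 (SE, n = 3 per genotype). Ryr1, the release channel of skeletal muscle, read 3.29, 2.64 and 3.87 in KO and 2.78, 3.68 and 3.55 in WT muscle, a difference of -0.07 ± 0.40. For both genes KO array 3 was the highest of all 6 arrays, and the genotypes overlapped over most of their range. The 95% intervals, -0.96 to 0.77 for Cacna1s and -1.03 to 0.90 for Ryr1, leave room for differences of about 2-fold in either direction. Without scaling of the arrays the sign of both turned, to 0.07 for Cacna1s and 0.10 for Ryr1.

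Jph1 and Trdn encode proteins that hold the triad together. Junctophilin 1 ties the transverse tubule to the reticulum, and triadin links the release channel to calsequestrin. Jph1 had log2 levels of -2.03, -2.33 and -1.15 in KO and -2.65, -1.28 and -1.68 in WT muscle, a difference of 0.03 ± 0.46. Trdn, on its brightest probe, had 4.03, 3.40 and 4.72 in KO and 3.88, 4.60 and 3.96 in WT muscle, a difference of -0.10 ± 0.40. The highest array was again KO array 3 for both, and the genotypes overlapped. Of the other Trdn probes, A_55_P2401646 ran from 2.47 to 3.74 in KO against 2.94 to 3.68 in WT muscle. A_55_P1966778 was dim, with intensities of 96.8 to 309 in KO against 95.3 to 204 in WT muscle.

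The calcium pumps had means on opposite sides of 0. Atp2a1 encodes SERCA1, the pump of fast fibres, and Atp2a2 encodes SERCA2, the pump of slow fibres and heart, which also has a form found in most cells. Atp2a1 had log2 levels of 3.60, 3.97 and 5.10 in KO and 3.75, 5.0 and 4.63 in WT muscle, a difference of -0.24 ± 0.49. Atp2a2 had 2.06, 1.83 and 2.33 in KO and 1.5, 2.24 and 1.80 in WT muscle, a difference of 0.22 ± 0.29. The genotypes overlapped for both pumps. Atp2a1 minus Atp2a2 within an array differed by -0.46 between KO and WT muscle, with KO values of 1.54, 2.14 and 2.77 inside and below the WT values of 2.24, 2.76 and 2.83 (exact permutation test, 2-sided, p = 0.30, where 0.10 is the smallest 3 against 3 arrays allow; 0.40 adjusted over the 4 such tests). Sln encodes sarcolipin, a small membrane peptide that inhibits SERCA pumps. Its log2 levels were 7.52, 7.03 and 7.27 in KO and 6.89, 7.33 and 7.08 in WT muscle, a difference of 0.17 ± 0.25, with overlapping genotypes. Deposited intensities of Sln reached 160000 to 187000 in KO against 105000 to 186000 in WT muscle.

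Casq1 and Casq2 encode calsequestrins, the calcium-binding proteins inside the reticulum, of which Casq1 is the main form of fast fibres and Casq2 the form of heart and slow or young fibres. Casq1 had log2 levels of 3.03, 2.98 and 3.28 in KO and 3.37, 4.25 and 2.62 in WT muscle, a difference of -0.32 ± 0.42. Casq2 had 4.69, 4.07 and 4.62 in KO and 4.37, 4.93 and 3.39 in WT muscle, a difference of 0.23 ± 0.43. The WT arrays spread more widely than the KO arrays for both, WT array 2 being the highest and WT array 3 the lowest of all 6. Each difference turned with 1 of these arrays: Casq1 stood at 0.10 without WT array 2, and Casq2 at -0.19 without WT array 3. Casq1 minus Casq2 within an array was -1.66, -1.09 and -1.35 on the KO arrays and -1.0, -0.68 and -0.77 on the WT arrays. The difference of -0.55 separated the genotypes and had the smallest p that 3 against 3 arrays allow (exact permutation test, 2-sided, p = 0.10; 0.40 adjusted over the 4 such tests), so it did not pass. Slow fibre markers, whose summed relative intensities were 178 to 303 in KO against 183 to 278 in WT muscle, overlapped between the genotypes, with WT array 3 at the 183. Cardiac markers had sums, which the brightest genes dominate, of 10.7 to 17.5 in KO against 7.46 to 15.1 in WT muscle. Their mean log2 deviations were -0.41 to 0.27 in KO against -0.14 to 0.26 in WT muscle, and their median log2 fold change was -0.11.

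**Figure D2:**
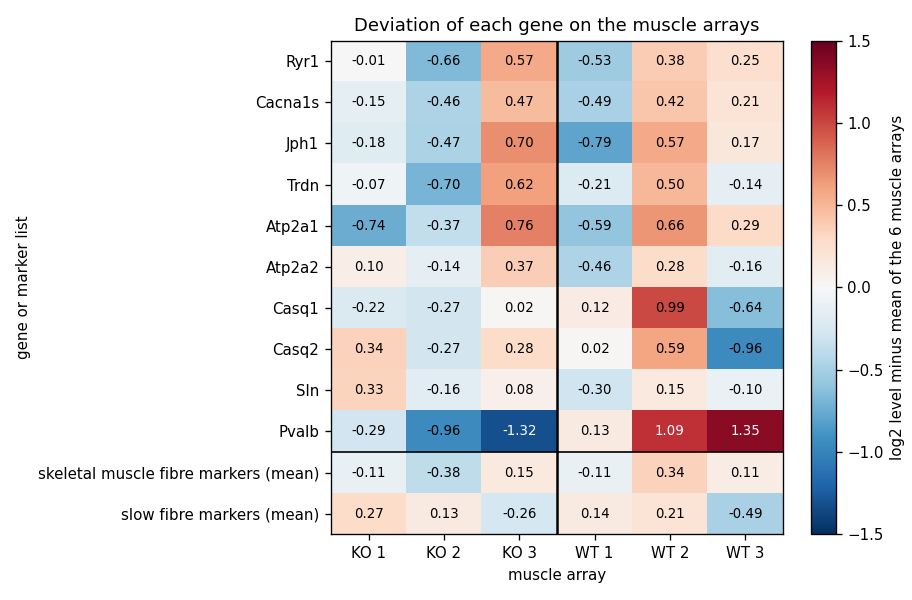
Log2 level of each gene on each muscle array minus its mean over the 6 muscle arrays, KO arrays left and WT arrays right, with the mean deviation of 15 skeletal muscle fibre markers and 8 slow fibre markers below. KO array 3 is red for Ryr1, Cacna1s, Trdn, Jph1 and Atp2a1 (0.47 to 0.76) and deep blue for Pvalb (-1.32), and Casq1 and Casq2 share a blue WT array 3 (-0.64 and -0.96).

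Part of the spread within genotypes was shared among genes. KO array 3 was the highest of the 6 muscle arrays for 6 of the 10 genes, and WT array 1, where brown fat markers were high, the lowest for 4. On KO array 3 Atp2a1 stood 0.76 and Jph1 0.70 above their means, while Pvalb stood at -1.32 from its own. On KO array 2, by contrast, 10 of 10 genes lay below their means, and so did the fibre markers at -0.38. Ryr1, Cacna1s and Jph1 correlated at r = 0.95 to 0.98 over the 6 arrays, and Pvalb correlated with Ryr1 at r = 0.21. The map of deviations shows KO array 3, then WT arrays 2 and 3 as the highest for Ryr1, Cacna1s and Jph1 alike.

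Over the 6 muscle arrays, the genes whose levels were most like each of the 10 were sought among 10921 others, by Pearson correlation and with no test. The genes searched were those above the median level in muscle and the other members. For Cacna1s they were Mylpf, the fast myosin regulatory light chain (r = 0.995), and the potassium channel gene Kcnj11 (r = 0.993). For Ryr1 they were Srl, which encodes the reticulum protein sarcalumenin (r = 0.993), and Eya4 (r = 0.992). Atp2a1 was closest to Des, the muscle intermediate filament desmin (r = 0.999), and to Trib1 (r = 0.999), and Atp2a2 to Dysf, which encodes the membrane repair protein dysferlin (r = 0.988), and to Ube2j2 (r = 0.987). Jph1 was closest to Dusp16 and Pde4dip (both r = 0.996), and Trdn to Ppp1r3a, a glycogen-targeting phosphatase subunit (r = 0.991), and Msantd4 (r = 0.985). Casq1 was closest to Ppm1b (r = 0.987) and Psma3 (r = 0.986), and Casq2 to Eif4a3l1 (r = 0.997) and Wdr1 (r = 0.995). Pvalb was closest to Cmtr1 (r = 0.980) and Lhpp (r = 0.978), and Sln to Eif4e2 (r = 0.988) and Nop58 (r = 0.979). Each r rests on 6 arrays of both genotypes, and all genes of an array share its RNA and its scaling. The genes named are the 2 highest of 10921 over so few arrays. Values as high as these can arise between unrelated genes.

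In KO against WT brain, 0 of the 10 genes passed in limma, where 0.0228% of all genes passed. All 10 had a log2 fold change below 0, as did 47.8% of all genes, with a median of -0.18 beside 0.012 over all genes. Casq2 and Jph1 stood at -1.16 and -1.39 and were the 2 of the 10 with an unadjusted p under 0.05, where 8.35% of all genes had one. The other 8 lay between -0.31 and -0.01.

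**Figure D3:**
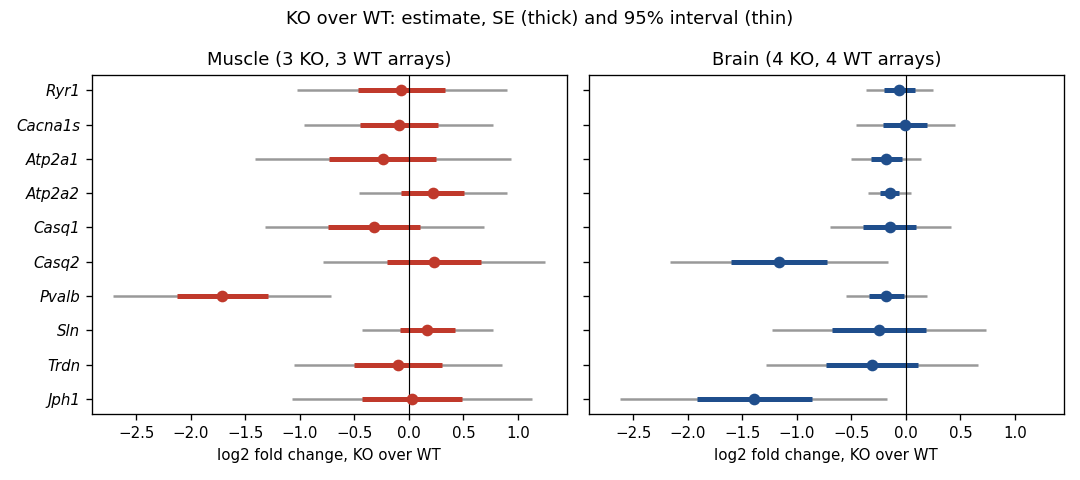
Log2 fold change of KO over WT for each gene in muscle (left) and brain (right), with the SE as a thick bar and the 95% interval as a thin line. The interval of Pvalb in muscle (-2.71 to -0.71) and those of Casq2 (-2.16 to -0.16) and Jph1 (-2.62 to -0.17) in brain do not cross 0, and none of these genes passed the adjustment over all genes.

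Casq2 had brain log2 levels of -5.60, -5.53, -6.22 and -5.84 on the KO arrays, against -5.14, -5.51, -3.35 and -4.54 on the WT arrays. No KO array reached the lowest WT array, a separation in this direction that 2.45% of all genes showed, but KO array 2 and WT array 2 were close. The difference was -1.16 ± 0.44 (SE, n = 4 per genotype; limma, adjusted p = 0.580, and 0.0449 to 0.998 under the other settings tried). Intensities were 15.3 to 26.6 in KO against 28.0 to 108 in WT brain, with the 108 on WT array 3. Without WT array 3 the difference was -0.73, and without WT arrays 3 and 4 together it was -0.47. With 50 added to each intensity it was -0.50. Jph1 showed the same arrays high. Its levels were -7.62, -8.19, -7.80 and -8.33 on the KO arrays and -6.96, -8.06, -5.99 and -5.36 on the WT arrays of brain, so that the genotypes overlapped. The difference was -1.39 ± 0.53 (adjusted p = 0.580, and 0.0440 to 0.998 under the other settings), and -0.47 without WT arrays 3 and 4. On 3 of 4 KO and 1 of 4 WT arrays the Jph1 probe lay within 2-fold of the lowest intensity of the array, so the size of its difference is not exact; with 50 added to each intensity it was -0.25.

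Both genes passed under 1 setting, added once the data had been seen, in which arrays were weighted by REML over the genes without blank values (adjusted p = 0.0449 for Casq2 and 0.0440 for Jph1). WT arrays 3 and 4 then carried weights of 2.99 and 1.55, against 0.402 and 0.342 for WT arrays 1 and 2, and 2161 genes passed in all. These are the arrays on which the hypoxia response genes were high. Their neutrophil markers were high as well, summing to 3.59 and 1.98 relative to the 75th percentile, with 0.630 to 1.03 on the 4 KO arrays and 0.985 and 1.00 on the other WT arrays. Cardiac muscle markers had sums, which the brightest genes dominate, of 0.497 to 0.570 in KO against 0.490 to 0.523 in WT brain. Their part in the Casq2 values was not tested. Skeletal fibre markers were low in brain but lay on the same side as the 10 genes, with 13 of 15 below 0 in KO against WT brain, a median of -0.52, 0 passing and 4 with an unadjusted p under 0.05. Their sums were 2.23, 1.70, 1.72 and 1.70 on the KO arrays and 2.56, 4.32, 2.12 and 1.84 on the WT arrays, highest on WT array 2 and not on WT arrays 3 and 4. The part of the fibre markers in the brain values of the 10 genes was not tested. Beyond leaving those arrays out, the part of hypoxia and neutrophil genes in the Casq2 and Jph1 values was not tested.

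For the 3 genes with brain intensities well above the lowest values on every array and a role outside muscle, no difference passed. Their log2 fold changes between KO and WT brain were -0.18 to -0.06. Atp2a2 had log2 levels of 1.14 to 1.36 in KO against 1.36 to 1.47 in WT brain, a difference of -0.15 ± 0.086, with KO array 4 just inside the WT range. This difference stayed below 0 under all 21 other settings, at -0.21 to -0.08. Ryr1, which also serves as a release channel in some neurons, had -1.02 to -0.65 in KO against -0.97 to -0.50 in WT brain, a difference of -0.06 ± 0.14 with a 95% interval of -0.37 to 0.25. Pvalb, known in adult brain as a marker of a class of inhibitory interneurons that acquires it after birth, had -2.13 to -1.58 in KO against -1.94 to -1.40 in WT brain, a difference of -0.18 ± 0.16. Purkinje cell and interneuron markers summed to 43.2 to 45.8 in KO against 44.8 to 50.5 in WT brain. The Pvalb probes read the brain differently: A_55_P2114437 had intensities of 274 to 355 in KO against 275 to 416 in WT brain, and A_55_P2059040 had 20.7 to 34.5 in KO against 20.1 to 41.2 in WT brain. Cacna1s and Atp2a1 differed by -0.01 ± 0.20 and -0.18 ± 0.14 between KO and WT brain. Casq1, Sln and Trdn were dim there, at 10 to 19.8, 26.5 to 105 and 3.44 to 8.15 in KO and 9.05 to 23.7, 33.7 to 75.3 and 3.20 to 13.2 in WT brain. Atp2a1 minus Atp2a2 within an array differed by -0.03 between KO and WT brain (exact permutation test, 2-sided, p = 0.886), and Casq1 minus Casq2 by 1.02 (p = 0.229; adjusted over the 4 tests 0.886 and 0.40).

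The difference between the KO effect in muscle and that in brain was tested in 1 limma model over all 14 arrays, and 0 of the 10 genes passed, where 0.00914% of all genes passed. At an unadjusted p under 0.05 there was 1 of the 10, Pvalb, beside 3.09% of all genes. Pvalb had a KO effect of -1.71 in muscle and -0.18 in brain, a difference of -1.53 ± 0.43 (adjusted p = 1.00, and 0.249 to 1.00 under the other settings). Casq2 and Jph1 ran the other way, with a KO effect in muscle minus that in brain of 1.39 ± 0.66 and 1.42 ± 0.78 (adjusted p = 1.00 for both). The remaining 7 genes had differences of -0.17 to 0.42.

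Between tissues the same genes differed by far more than between genotypes. In WT mice all 10 were higher in muscle than in brain at an adjusted p under 0.05, where 31.4% of all genes were higher, and in KO mice all 10 were too, where 31% were. In both genotypes all muscle arrays lay above all brain arrays for the 10 genes, as they did for 30.7% of genes in WT and 32.2% in KO mice. The median log2 difference was 7.86 in KO and 7.93 in WT mice, beside -0.045 and 0.04 over all genes. Sln was higher in muscle by 11.91 ± 0.39 in KO and 11.49 ± 0.39 in WT mice, and Casq1 by 9.56 ± 0.34 and 9.73 ± 0.34. Trdn was higher by 12.00 ± 0.44 in KO and 11.78 ± 0.44 in WT mice, but its brain intensities lay within 2-fold of the lowest of the array on 3 of 4 KO and 2 of 4 WT arrays. With 50 added to each intensity, the Trdn difference was 8.46 in KO and 8.49 in WT mice, that of Sln 10.81 and 10.53, and that of Jph1 2.80 and 2.56. Casq1 was dim in brain as well, and the lowest difference under the settings tried was 7.3 in KO and 7.56 in WT mice.

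Ryr1 and Atp2a2 had the smaller contrasts among genes that were measured well above the lowest values in both tissues. Ryr1 was higher in muscle by 4.06 ± 0.28 in KO and 4.07 ± 0.28 in WT mice. Atp2a2 was higher by 0.81 ± 0.18 in KO (adjusted p = 0.00140, and 0.000413 to 0.0979 under the other settings) and 0.44 ± 0.18 in WT mice (adjusted p = 0.0486, and 0.0103 to 0.862 under the other settings). The WT call was lost in 14 of 20 settings, among them the fit of the other Atp2a2 probe, A_52_P168097, where the difference was 0.06, and the fit without muscle WT array 2, where it was 0.24. Cacna1s, Atp2a1, Casq2 and Pvalb were higher in muscle by 5.19 to 10.26 in KO against 6.72 to 8.87 in WT mice, and Jph1 by 6.15 ± 0.55 in KO and 4.72 ± 0.55 in WT mice.

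Other genes of excitation-contraction coupling and calcium stores were described as a list of 44, of which 40 were measured. In KO against WT muscle, 0 of them passed and 0 had an unadjusted p under 0.05 in limma, with 19 above and 21 below 0 and a median of -0.05, beside 1.56% with such a p, 53.4% below 0 and a median of -0.027 over all genes. The smallest p values were those of Fkbp1b, a protein bound to release channels, at 0.69 ± 0.30, Jph2, another junctophilin, at -0.82 ± 0.44, and the plasma membrane calcium pump gene Atp2b1 at 0.37 ± 0.22 (adjusted p = 1.00 for each). In KO against WT brain, 0 passed and 7 had an unadjusted p under 0.05, with 10 above and 30 below 0 and a median of -0.06. Over all genes of the brain comparison, 8.35% had such a p, 47.8% lay below 0 and the median was 0.012. There the smallest p values were those of Camk2a, a subunit of calcium/calmodulin-dependent kinase II, at -0.68 ± 0.21, Cacnb1, a calcium channel beta subunit, at -0.45 ± 0.15, and Cacna1c, the pore of a channel of heart and neurons, at -0.30 ± 0.10 (adjusted p = 0.580 for each).

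The same list split by tissue in WT mice, with 23 of 40 genes higher and 10 lower in muscle than in brain in limma, where 31.4% and 27% of all genes were. Families divided between the tissues. Among release channels, Ryr1 was higher in muscle by 4.07 ± 0.28, Ryr2, the channel of heart and neurons, was lower at -4.93 ± 0.30, and Ryr3 did not pass (-0.27 ± 0.24, adjusted p = 0.361). Ryr2 intensities were 6.74 to 21.8 in KO against 10.1 to 17.6 in WT muscle. Of the junctophilins, Jph1 and Jph2 were higher in muscle (4.72 ± 0.55 and 5.07 ± 0.34), and the neuronal forms Jph3 and Jph4 were lower (-6.58 ± 0.17 and -7.88 ± 0.34). Cacna1s was higher at 8.06 ± 0.28 and Cacna1c lower at -3.20 ± 0.40. The Cacna1c probe read 2.96 to 8.72 in WT muscle, within 2-fold of the lowest intensity on 2 of 3 arrays, so the size of its difference is not exact. Genes of the muscle triad and reticulum that were higher in muscle included Stac3, which links the voltage sensor to the release channel (3.94 ± 0.32), the histidine-rich calcium-binding protein gene Hrc (7.56 ± 0.29), sarcalumenin Srl (5.30 ± 0.28), Jsrp1 (6.80 ± 0.28) and Mrln, which encodes the SERCA inhibitor myoregulin (7.17 ± 0.39). Phospholamban Pln, the inhibitor of SERCA2 in heart and slow fibres, is counted among the 23, but its probe lay within 2-fold of the lowest intensity on 4 of 4 WT brain arrays and 1 of 3 WT muscle arrays, and no size is given for it.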

How the data were processed

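The authors' deposited table held linear probe intensities of 14 arrays with 1 colour (Cy3), made with Agilent Feature Extraction per the submitters' processing notes. What was done to the intensities after scanning is not stated there. The 75th percentile of an array's named probes lay between 883 and 1398 and its lowest intensity between 2.04 and 3.51. No detection flags were used, and 22.2% to 30.4% of probes were less than 2-fold above the lowest value. Precision rests on the number of arrays.

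Of 55681 probes, 30626 had exactly 1 gene symbol in the platform annotation and the other 25055 did not. There were 129 blank cells. Levels were log2 intensities minus the array's 75th percentile over named probes, on the probe of highest mean for each of 21893 genes. KO and WT were compared within each tissue. Tissues, and the difference of KO effects, were compared in 1 model with 4 group means over all arrays. Tests used limma 3.58.1 in R 4.3.3, 2-sided, with Benjamini-Hochberg adjustment over all genes. The scripts were tested on simulated data. For KO against WT muscle, 0 of 50 genes simulated with a log2 change of 1 passed, and 19 of 50 with a change of 2. For brain these were 25 of 50 and 46 of 50. Changes of such sizes in muscle can therefore fail to pass. Intervals are 95% intervals of the moderated statistic. Differences between 2 genes within an array were compared by exact permutation tests. Other scalings, probes, filters, weights and omitted arrays were tried. The members and lists were chosen with earlier results of these data known, and the hypoxia list was added last. The rule for other named genes took Celf1, the 3 list genes of smallest p per tissue, the 2 genes most correlated with each member and defining markers. Family genes named in the tissue comparison were chosen after their values were seen.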

Additional observations from a re-analysis of the deposited data

How the results depend on the processing

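In KO against WT muscle, 0 of the 10 genes passed under each of the 19 alternatives, and Pvalb stayed below 0 in all 19, between -2.07 and -1.35. Small muscle differences turned sign. Ryr1 stood at 0.10 without scaling, 0.10 with array weights, 0.10 with weights by REML and 0.16 with fibre markers subtracted. Cacna1s stood at 0.07 without scaling, 0.04 after quantile normalization, 0.01 with array weights, 0.0027 with weights by REML and 0.13 with fibre markers subtracted. Trdn stood at 0.07 without scaling and 0.13 with fibre markers subtracted, and Jph1 at -0.0041 with 50 added. Leaving out 1 array at a time gave -0.37 to 0.25 for Ryr1, -0.36 to 0.11 for Cacna1s, -0.67 to 0.07 for Atp2a1, -0.71 to 0.10 for Casq1, -0.19 to 0.58 for Casq2, -0.43 to 0.23 for Trdn and -0.36 to 0.33 for Jph1.

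In brain, 2 of the 10 genes passed with weights by REML, Casq2 and Jph1, and 0 under the other alternatives. Cacna1s stood at 0.01 without scaling, 0.06 after quantile normalization, 0.06 with median scaling, 0.08 with array weights and 0.11 by REML. Ryr1 stood at 0.01 with median scaling and 0.10 without WT arrays 3 and 4. Casq1 stood at 0.04 and Trdn at 0.15 with array weights, and at 0.08 and 0.20 by REML. Leaving out 1 array gave -0.14 to 0.02 for Ryr1, -0.11 to 0.11 for Cacna1s and -0.59 to 0.03 for Sln. Atp2a1 minus Atp2a2 was 0.02 with 50 added, and -0.13 to 0.10 with 1 array left out.

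For the KO effect in muscle minus that in brain, Ryr1 was 0.14 without scaling and 0.01 after quantile normalization, Cacna1s 0.06 without scaling and 0.02 on its other probe, Atp2a1 0.09 without scaling and Trdn -0.03 with 50 added. Leaving out 1 array gave -0.31 to 0.31 for Ryr1, -0.36 to 0.12 for Cacna1s, -0.49 to 0.26 for Atp2a1, -0.57 to 0.25 for Casq1 and -0.12 to 0.54 for Trdn. The number of the 10 genes higher in WT muscle than in WT brain was 9 to 10 with 1 array left out. Over all genes, the number passing was 0 in muscle and 0 to 9 under the alternatives, 5 in brain and 0 to 2161, and 2 for the difference of KO effects and 1 to 8. The causes were not tested.

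The labels do not say whether array numbers pair the samples. Correlations of same-numbered deviations were -0.084 to 0.20 in muscle and -0.045 to 0.10 in brain. Those of different numbers were -0.28 to 0.12 in muscle and -0.11 to 0.062 in brain, and these values do not settle the pairing. With the number as a replicate block, 0 of the 10 genes passed in either tissue, and Pvalb in muscle stood at -1.71. The REML weights, the fibre marker scaling and the hypoxia list were chosen after seeing the data.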
